A study of Mus musculus with 134 samples.

Results

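The cells described here are the 153 cells of H3K27me3 scSET-seq experiments 8, 9 and 10 that the study's cell table assigns to the Mix cluster, its Cluster 0. They are 153 of the 384 cells of the H3K27me3 matrix and of the 752 cells in both single-cell matrices. Experiment 8 gave 56 of them, experiment 9 gave 43 and experiment 10 gave 54. Another 23 cells of the same experiments were left out, of which 12 were assigned to the Proxi or Dista clusters and 11 had been filtered by the authors. The cluster names come from the RNA counts of these cells, after the batches of both histone marks had been aligned, so the Mix cells were compared with Mix cells of other experiments and not with other clusters.

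All single cells were E14 mouse embryonic stem cells (mESCs) of strain 129/Ola, grown with serum and LIF on gelatin and given Wnt3a-coated beads for 12 h. The daughter cells next to the bead (proximal) and away from it (distal) were picked by hand as pairs, and the Mix cells of experiments 8, 9 and 10 were 26, 20 and 28 proximal and 30, 23 and 26 distal cells. Nuclei were kept on concanavalin A beads for the H3K27me3 antibody, and the RNA of the supernatant was reverse transcribed with an oligo d(T) primer and tagmentated by indexed Tn5. The cells of an experiment were pooled before the PCR, so an experiment is 1 sample and cells are not replicates. The comparison samples were the Mix cells of H3K27me3 experiments 2 to 7, which carry the same treatment and antibody labels and hold 6, 3, 3, 10, 25 and 6 cells. Experiment 1 had 2 Mix cells and was left out of the tests. The reference was bulk SET-seq of 10000 mESCs, in 2 libraries without an antibody and without Wnt3a beads. Nothing in the labels says what set experiments 8 to 10 apart from the earlier ones, so the number of the experiment cannot be told apart from any change of reagents, cells or sequencing, and p-values measure the spread between experiments.

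An RNA-seq profile of an mESC is normally led by the mRNAs of ribosomal proteins, glycolysis, the cytoskeleton and chaperones, together with pluripotency genes such as Pou5f1 and Nanog. Genes of neurons, olfactory receptors and other specialised tissues are silent or nearly so. PRC2, which places H3K27me3, has the core subunits Ezh2, Eed and Suz12 with the histone-binding Rbbp4 and Rbbp7, and the accessory subunits Aebp2 and Jarid2. Wnt signals act through beta-catenin on target genes such as Axin2, Lef1 and Nkd1. A gene that is switched off can still collect a few reads in its introns, and the single-cell counts cover both exons and introns while the bulk counts cover exons.

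The 153 cells held 50847269 counts in all. The median total per cell was 331989 counts in experiment 8, 221257 in experiment 9 and 124082 in experiment 10, and single cells ranged from 16550 to 1937610. The median number of genes with a count was 2423.5, 2226 and 1826.5. The precursor rRNA gene Rn45s took 3.65%, 4.18% and 0.0244% of the summed counts, against 19.6% and 14.3% in the bulk libraries. The low value was that of experiment 10, and Rn45s was left out of the relations to bulk below. The counts are reads without molecular identifiers, so the intervals and floors given here cover counting error only. The 3 experiments used the same set of indexes, and 32 index pairs occurred among Mix cells of all 3 experiments, but no pair of cells had identical counts.

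Cracr2a, 4930438A08Rik and Aebp2, which are 3 of the study's larger list of Mix marker genes, had a count in 153 of the 153 cells. Aebp2, an accessory subunit of PRC2 on chromosome 6 from 140571184 to 140626993 (mm9), took on average 2.15%, 2.66% and 1.80% of a cell's counts in experiments 8, 9 and 10. Cracr2a, a calcium sensor that regulates store-operated calcium entry, took 1.10%, 1.48% and 0.580%, and 4930438A08Rik took 0.764%, 1.39% and 1.99%. Their bulk levels were low, with an RPKM of 4.49 for Aebp2, 0.227 for Cracr2a and 0.193 for 4930438A08Rik. The bulk libraries held 1 and 19 read pairs on Cracr2a, and 1 and 3 on 4930438A08Rik.

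These 3 markers did not set the Mix cells apart within these experiments, and the study's other Mix markers were not examined as a list. All 3 had a count in each of the 12 Proxi or Dista cells of experiments 8 to 10, where Aebp2 took 1.95%, Cracr2a 1.18% and 4930438A08Rik 0.797% of a cell's counts. The Mix cells of experiment 6 were close to these values, with 2.17%, 1.25% and 1.43%. In the other earlier experiments Aebp2 was in every cell, but Cracr2a was in 100%, 0%, 66.7%, 50.0% and 33.3% of the Mix cells of experiments 2, 3, 4, 5 and 7.

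The counts of the 153 cells consisted of a small set of genes present in nearly every cell and a long list of genes seen in few cells. Of 17621 genes, 7402 had no count in any of the cells and 6115 were in under 10% of them. At the other end, 483 genes were in at least 95% of the cells of each of the 3 experiments, and 289 were in every cell. These 483 genes took a median of 66.4%, 57.5% and 86.3% of a cell's counts in experiments 8, 9 and 10. Single cells ranged from 5.71% to 94.1%. In the bulk libraries the same genes took 1.12% and 1.19% of the counts.

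**Figure D1:**
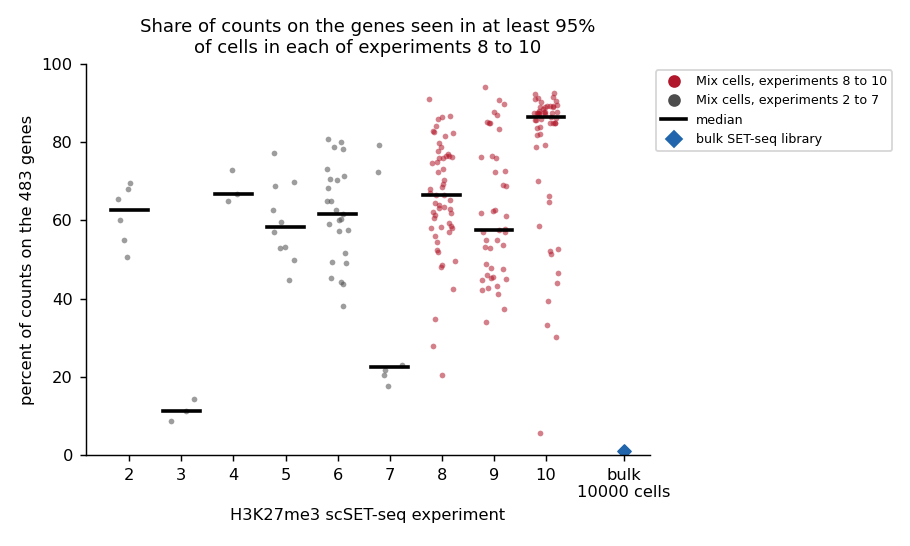
Percent of a cell's counts (y axis) on the 483 genes found in at least 95% of the Mix cells of each of experiments 8 to 10, for the Mix cells of H3K27me3 experiments 2 to 10 (x axis). Points are cells, black bars are medians and blue diamonds are the 2 bulk SET-seq libraries of 10000 cells, which lie at 1.12% and 1.19% while the medians of experiments 8, 9 and 10 are 66.4%, 57.5% and 86.3%.

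The set was chosen on these cells, so its high share is a description. When the genes were chosen on 2 of the experiments, they were found in 98.2%, 97.3% and 93.5% of the cells of the experiment that had been left out (8, 9 and 10 in turn), where all genes averaged 14.2%, 12.7% and 10.8%. The set was not particular to the Mix label. Its median share was 57.1% in the 12 Proxi or Dista cells and 78.6% in the 11 filtered cells of the same experiments. It was 62.7%, 11.4%, 66.7%, 58.4%, 61.5% and 22.5% in the Mix cells of experiments 2 to 7, so experiments 3 and 7 lay far below the others. In the Mix cells of the 6 H3K4me3 experiments the medians were between 10.8% and 31.8%.

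Within the set, the order of the genes was shared between the experiments. For each experiment the mean percent of a cell's counts was taken per gene, on a log2 scale with a small constant added. Pearson's r of these values over the 483 genes, which are not independent replicates, was 0.83 between experiments 8 and 9. It was 0.78 between 8 and 10 and 0.78 between 9 and 10. Experiment 6 had an r of 0.74, 0.74 and 0.72 with them. The remaining earlier experiments had values of 0.33 to 0.56. They had no part in choosing the set, and the median cell of experiments 3, 4, 5 and 7 had 52.2% to 64.5% of its genes. Experiments 3 and 4 rest on 3 cells each, so the lower values are no like comparison. A gene's share of the counts on the set still varied between the cells of an experiment, with a median coefficient of variation of 68.4%, 63.9% and 85.0%.

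The leading gene of the set was Mir3084-1, a microRNA gene, with 3.55%, 3.61% and 7.13% of a cell's counts and a count in every one of the 153 cells. The bulk libraries had 0 read pairs on it. The gene annotation deposited with the bulk counts lists it at 2 places on the minus strand of chromosome 19, from 25016726 to 25016793 and from 60850235 to 60850300 (mm9), which lie 35833.4 kb apart. How the single-cell counter treated the stretch between both places is not given in the sources used here, so the count cannot be assigned to the microRNA. The mature sequences are shown because this name carried more counts than any other gene, with the seed (bases 2 to 8) in capitals. They are those of RefSeq with GRCm38.p6, where Mir3084-1 and Mir3084-2 have the same mature sequences.
mmu-miR-3084-5p: gUUGAAGGuuaauuagcagagu
mmu-miR-3084-3p: uUCUGCCAgucuccuucagac
These arms have different seeds. A like case was Mir684-1, a microRNA gene listed at 9 places on 7 chromosomes, with 0.672%, 1.39% and 1.05% of a cell's counts. In all, 59 genes listed on several chromosomes, on both strands or over more than 3000000 bases took 5.17%, 5.15% and 8.97% of the summed counts, so most of the set's share was on genes with 1 place.

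Among the other leading genes, several are known from neurons or from signalling. Rbfox1, a neuronal splicing factor, took 1.12%, 1.29% and 1.52% of a cell's counts and had an RPKM of 0 in bulk. Rgs7, a regulator of G protein signalling in neurons, took 1.97%, 0.579% and 0.497%, with a bulk RPKM of 0.155. Arhgap32, a GTPase-activating protein, took 2.11%, 1.49% and 1.96%, with a bulk RPKM of 3.91. Fat4, an atypical cadherin, took 0.315%, 0.758% and 1.55%, with the highest value in experiment 10. Cfap54, a gene of motile cilia, took 0.699%, 1.03% and 1.05% with a bulk RPKM of 0.059. Pea15a, a binding partner of ERK, took 0.741%, 0.658% and 1.21%. Zfyve26, whose product acts at lysosomes, took 0.994%, 0.765% and 1.08%, and Gm5086 took 1.31%, 1.16% and 1.45%. Zc3h7a, a zinc finger gene, was in 149 of the 153 cells and took 2.29%, 1.60% and 0.480%. Each of these genes other than Zc3h7a was in all 153 cells.

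The 483 genes were long and weakly expressed in bulk. Their median span in the annotation was 129076 bases against 22739 for all 17621 genes, and their median exon length 4543 against 2800 bases. Their median bulk RPKM was 0.374 against 1.90. An RPKM below 0.1 was found for 126 of them (26.1%, against 17.1% of all genes) and an RPKM of at least 10 for 70 (14.5%, against 28.0%). Chromosome X held 1.66% of the set and 3.04% of all genes. In the genome of the same build, NCBIM37, the median GC content of their spans was 43.4%, and 45.6% for the other genes. An uninterrupted run of at least 20 A, or on the other strand of 20 T, to which an oligo d(T) primer could pair, was in the span of 78.4% of the set and of 52.1% of the other genes. Per megabase the set had fewer such runs, with 20.8 against 28.9. The part of such runs in the counts was not tested.

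The remaining genes followed another pattern. Among genes seen in under 50% of the cells, a cell that had the gene held a median of 1 count, while the mean was 82.1, 140 and 45.6 counts in experiments 8, 9 and 10. Between 52.9% and 60.2% of these detections rested on a single read. A gene of the set had a median of 96, 73 and 42 counts in a cell where it was found.

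A single gene could hold much of a cell. The leading gene of a cell took a median of 10.1%, 11.6% and 11.8% of its counts, and over 10% in 91 of the 153 cells. In 69 cells it was from the set of 483, with Mir3084-1 first in 27 cells. In the other 84 cells the leading gene was from outside the set, and these were 76 different genes with a median bulk RPKM of 65.3. The highest share was 74.7%, on Ppia, a prolyl isomerase used as a housekeeping gene, in 1 cell of experiment 10. Scamp4, a membrane trafficking gene, took 63.8% of a cell in experiment 8 and was found in 10.5% of the cells. Dtymk, which makes thymidine diphosphate, took 63.6% of a cell and was in 11.8% of the cells. Ash2l, a subunit of H3K4 methyltransferase complexes, took 58.5% of a cell and was in 9.80% of them. Lars2, the mitochondrial leucyl-tRNA synthetase, led in 3 cells and Ywhae, a 14-3-3 protein, also in 3, while 70 of the 76 genes led in 1 cell each.

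**Figure D2:**
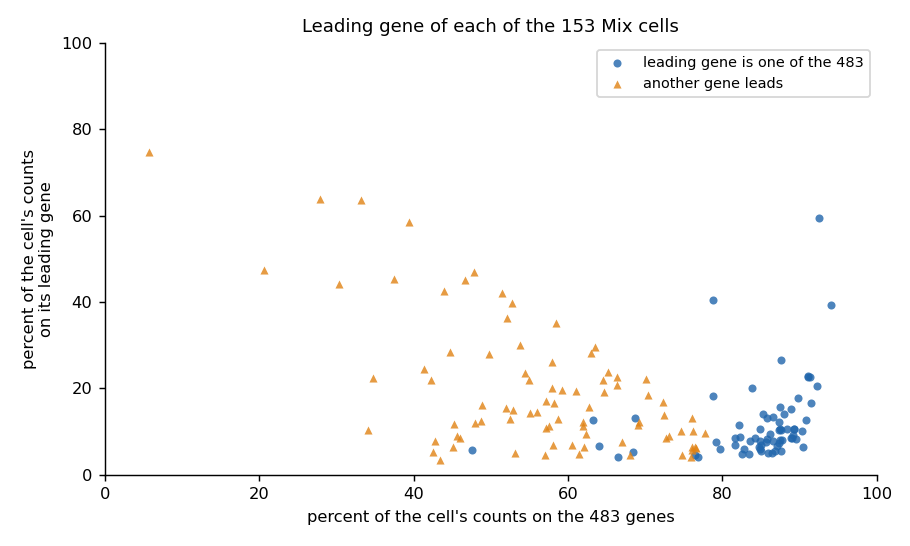
Percent of a cell's counts on its leading gene (y axis) against the percent on the 483 genes (x axis) for the 153 Mix cells, 1 point per cell. Blue circles are the 69 cells led by a gene of the set and orange triangles the 84 cells led by another gene, of which the highest lies at 74.7%.

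The summed counts of the Mix cells of experiments 8, 9 and 10 had no positive correlation with bulk SET-seq. Pearson's r of log2(CPM + 1) over 17621 genes was -0.023, -0.014 and -0.054. In experiments 2 to 7 it was 0.12, 0.38, 0.30, 0.41, 0.29 and 0.27, so the groups did not overlap. The means were -0.030 ± 0.021 (SD, n = 3) and 0.29 ± 0.10 (SD, n = 6), a difference of -0.32. An exact two-sided permutation test over experiments gave p = 0.0119, the smallest value 3 against 6 experiments allow. After Benjamini-Hochberg adjustment over the 4 single-value tests of this report it was 0.0476. The experiments had been set apart with earlier results of these data known. The p-values of this and the other tests between these groups are therefore descriptive. The difference kept its direction and stayed below 0.05 (unadjusted) in every alternative run, which included other bulk libraries, RPKM, Spearman's rho and equal numbers of cells and counts. With Spearman's rho the values of experiments 8, 9 and 10 were 0.037, -0.014 and 0.039, so their sign depended on the measure.

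The same held cell by cell. In 153 of the 153 cells r with bulk was below 0, with medians of -0.080, -0.076 and -0.074 and a highest value of -0.037. The 12 Proxi or Dista cells of experiments 8 to 10 were below 0 as well. In the Mix cells of experiments 2 to 7 the medians per experiment ran from 0.029 in experiment 2 to 0.23 in experiment 3, and 1 of the 53 cells was below 0. Between themselves, the summed profiles of experiments 8, 9 and 10 had an r of 0.82, 0.82 and 0.80 over the same genes. Cells of an experiment share its pool and its sequencing, and these correlations are across genes, so they carry no p-value.

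**Figure D3:**
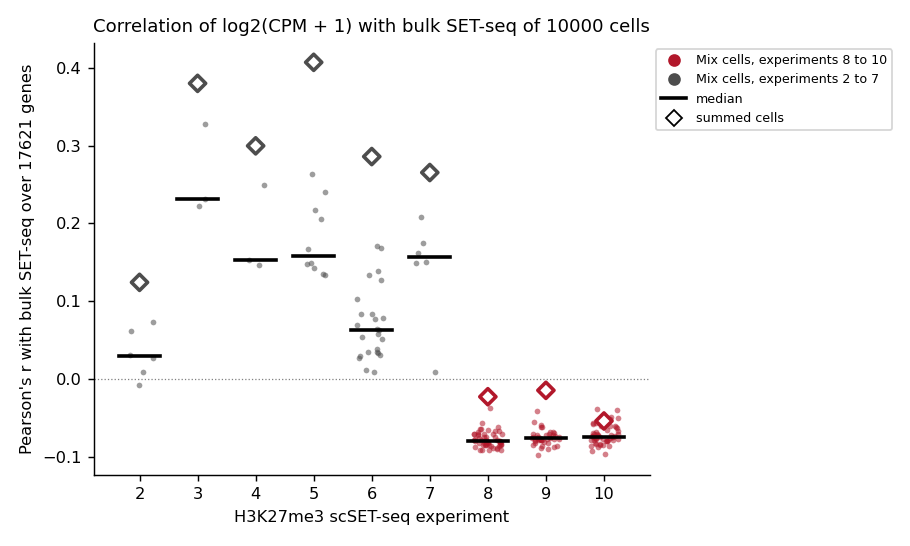
Pearson's r of log2(CPM + 1) with bulk SET-seq of 10000 cells over 17621 genes (y axis) for the Mix cells of H3K27me3 experiments 2 to 10 (x axis). Points are cells, black bars their medians and diamonds the summed cells of an experiment, and all 153 cells of experiments 8 to 10 lie below 0.

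Sorted by their bulk level, genes that bulk mESCs express strongly were found in fewer of the cells than in the Mix cells of experiments 2 to 7. The 942 genes with a bulk RPKM of at least 100 were found on average in 9.23%, 7.46% and 7.08% of the cells of experiments 8, 9 and 10. The same genes were in 48.6%, 49.9%, 34.6%, 35.2%, 47.4% and 33.0% of the Mix cells of experiments 2 to 7. Of the 942 genes, 154 (16.3%) had no count in any of the 153 cells, and of the 4932 genes with an RPKM of at least 10 these were 1792 (36.3%). Both shares were below the 42.0% of all 17621 genes, so strongly expressed genes were seen in few cells but were not missing more often than others.

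At the low end the order was turned round. The 3012 genes with a bulk RPKM below 0.1 were in 19.4%, 17.4% and 14.9% of the cells, more often than the strongly expressed ones. They were in between 6.09% and 28.4% of the cells of experiments 2 to 7, less often than the strongly expressed ones in each experiment. When each cell was thinned to 5000 counts, the genes of at least 100 RPKM were in 1.22%, 1.30% and 1.47% of the cells of experiments 8, 9 and 10 and in 6.86% to 20.9% of those of experiments 2 to 7, and no cell was too shallow for this. The strongly expressed genes took 8.17%, 14.3% and 7.78% of the summed counts and 56.1% of the bulk counts. This class of genes also took little in experiments 2, 4 and 5, with 5.52%, 9.42% and 8.86%.

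**Figure D4:**
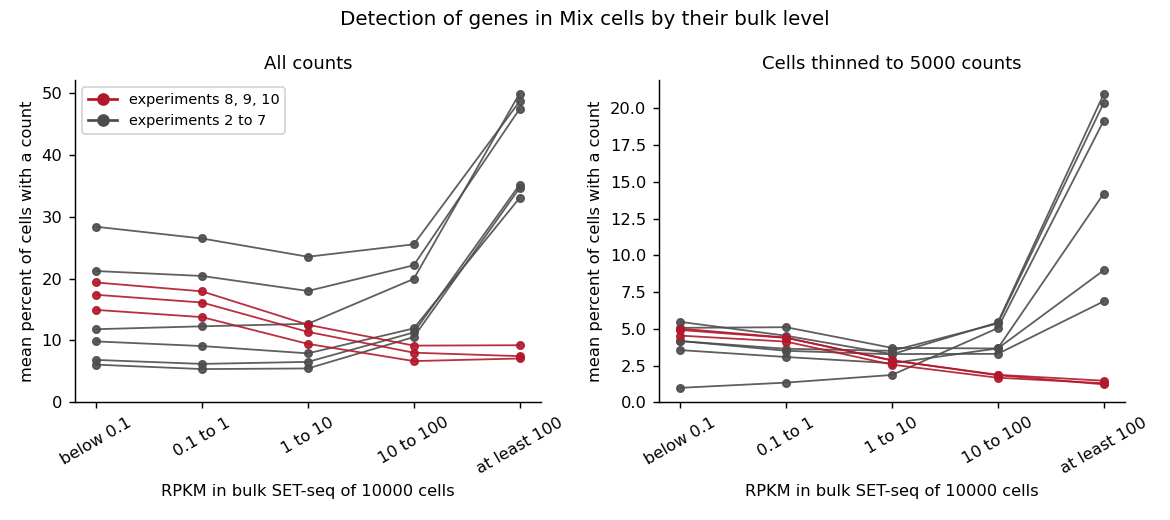
Mean percent of Mix cells with a count (y axis) for genes in 5 classes of RPKM in bulk SET-seq of 10000 cells (x axis), with all counts on the left and cells thinned to 5000 counts on the right. Each line is 1 experiment, and the lines of experiments 8, 9 and 10 end at 9.23%, 7.46% and 7.08% on the left where those of experiments 2 to 7 end between 33.0% and 49.9%.

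The share of counts on genes that bulk cells hardly express did not differ detectably. Genes with a bulk RPKM below 0.1 took 23.4%, 21.4% and 28.7% of the summed counts in experiments 8, 9 and 10, and 0.0323% of the bulk counts. In experiments 2 to 7 the lowest, median and highest values were 4.05% in experiment 3, 21.9% and 43.4% in experiment 5. The means were 24.5 ± 3.8% (SD, n = 3) and 23.8 ± 13.2% (SD, n = 6), with overlapping groups (exact permutation p = 0.893, adjusted 0.893). The sign of this difference turned under several alternatives, which are given in the closing section.

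The relation of the counts to the span of a gene was stronger than in the other experiments, but not after adjustment. Spearman's rho between the summed CPM and the span over 17562 genes was 0.40, 0.40 and 0.38 in experiments 8, 9 and 10. It was 0.35, 0.20, 0.10, 0.15, 0.32 and 0.21 in experiments 2 to 7, so the groups did not overlap. The means were 0.39 ± 0.02 (SD, n = 3) and 0.22 ± 0.10 (SD, n = 6), with an exact two-sided permutation p of 0.0357 and an adjusted p of 0.0714. The difference of 0.17 therefore did not pass the threshold after adjustment, and with exon length in place of span it was 0.072 (exact permutation p = 0.0714).

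At an equal depth of 5000 counts, the median cell of experiments 8, 9 and 10 had 597.5, 516 and 609.5 genes. In experiments 2 to 7 it had 734.5, 466, 892, 899, 789 and 672. The means of 574 ± 51 (SD, n = 3) and 742 ± 162 (SD, n = 6) differed by -168 genes, and experiment 3 lay below all 3 of them. The test did not pass (exact two-sided permutation p = 0.143, adjusted 0.190). Without experiment 3 the difference was -223 genes (exact permutation p = 0.0357).

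The gene lists below name the biology behind these classes. The lists were chosen with earlier results of these data known, so counts over them are descriptions. The 17 housekeeping genes in the matrix were in 25.0%, 16.3% and 16.7% of the cells of experiments 8, 9 and 10, as the median over the genes, and in 83.3% to 100% of the cells of experiments 2 to 7. Actb, which encodes beta-actin and had a bulk RPKM of 1543, was in 23.2%, 9.30% and 16.7% of the cells. Gapdh, a glycolytic enzyme, was in 19.6%, 32.6% and 16.7%. Eef2, an elongation factor of translation, was in 1.79%, 2.33% and 5.56%, and Npm1, a nucleolar chaperone, in 14.3%, 16.3% and 18.5%. Actb and Gapdh were each in 83.3% to 100% of the cells of experiments 2 to 7. The 17 genes took 0.389%, 0.390% and 2.21% of the summed counts of experiments 8, 9 and 10, against 0.571% to 3.85%.

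The 80 ribosomal protein genes followed the housekeeping genes. Their median detection was 20.5%, 11.6% and 13.9% in experiments 8, 9 and 10, and 83.3% to 100% in experiments 2 to 7. Their share of the summed counts overlapped, with 1.42%, 4.63% and 2.83% against 1.84% to 12.3%. In the median cell the share was 0.0308%, 0.0366% and 0.0280%, against 1.77% to 14.3%, so these counts lay in few cells. Rpsa was in 37.5%, 34.9% and 33.3% of the cells, with 2.98, 1.64 and 3.12 CPM, and in all Mix cells of experiments 2 to 7 with 842 to 3936 CPM. Rplp0, a stalk protein of the ribosome, was in 35.7%, 25.6% and 38.9% of the cells. Its CPM were 16.5, 1.40 and 11237, so experiment 10 lay far above experiments 8 and 9. The 82 genes of the respiratory chain and ATP synthase had a median detection of 2.68%, 2.33% and 1.85%, and 31.7%, 42.7% and 32.9% of them had no count in the cells of experiments 8, 9 and 10, against 52.2%, 61.7% and 60.8% of all genes. The respiratory chain list took 0.633%, 0.912% and 0.0252% of the summed counts, against 0.307% to 2.02% in experiments 2 to 7. Atp5b, the catalytic subunit of ATP synthase, was in 25.0%, 16.3% and 16.7% of the cells, against 80.0% to 100% in experiments 2 to 7.

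Pluripotency genes were rare although the cells are mESCs. The median detection of 17 mESC markers in the matrix was 8.93%, 4.65% and 5.56%, against 66.7%, 33.3%, 0%, 20.0%, 36.0% and 33.3% in experiments 2 to 7. Experiment 4, with 3 cells, thus lay below experiments 8 to 10. The list took 0.399%, 0.00909% and 0.00623% of the summed counts, against 0.0841% to 0.452% in experiments 2 to 7. Pou5f1, the core pluripotency factor Oct4 and a gene of 170 RPKM in bulk, had a count in 0 of the 153 cells. By counting error alone this allows up to 1.96% of cells with a read, which is no limit on cells that express the gene. Its detection in experiments 2 to 7 was 16.7%, 0%, 0%, 10.0%, 28.0% and 0%, so it was also absent from the Mix cells of 3 of these experiments. Nanog was in 5.36%, 0% and 3.70% of the cells of experiments 8, 9 and 10, and Zfp42, the naive marker Rex1, in 10.7%, 0% and 3.70%. Utf1, a chromatin-bound factor with a bulk RPKM of 567, was in 5.36%, 4.65% and 7.41%, against 50.0% to 100% in experiments 2 to 7. Dppa5a, a gene of pluripotent cells with a bulk RPKM of 2353, was in 17.9%, 9.30% and 14.8% of the cells, against 83.3% to 100%. Tfcp2l1, a factor of naive pluripotency, went the other way within the list, with 91.1%, 74.4% and 68.5% of the cells and 21.5, 5.73 and 11.7 CPM. Lin28a, which blocks let-7 maturation, was in 51.8%, 25.6% and 92.6%, against 0% to 16.7% in experiments 2 to 7.

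Genes of neuronal adhesion and synapses were the reverse. The median detection of the 20 listed genes was 100%, 97.7% and 100%, and 13 of them belonged to the set of 483, while their median bulk RPKM was 0.0521. Cntnap2, a neurexin-like cell adhesion gene with a span of 2241311 bases, was in all 153 cells with 1533, 932 and 1058 CPM. Ptprd, a receptor tyrosine phosphatase of synapses, and Pcdh9, a protocadherin, were in all 153 cells, with bulk RPKM of 0.0437 and 0. Magi2, a synaptic scaffold, was among the listed genes outside the set, at 46.4%, 48.8% and 38.9%. These genes are among the longest in the genome, and they were frequent in the other Mix cells too, where the list's median detection was 75.0% to 100%.

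**Figure D5:**
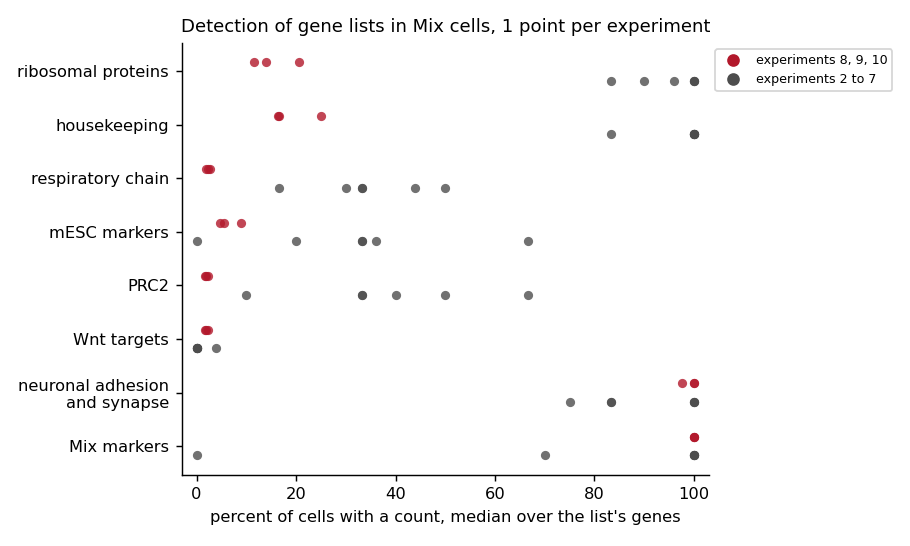
Percent of Mix cells with a count, as the median over the genes of a list (x axis), for 8 lists of genes (y axis). Each point is 1 experiment, red for experiments 8, 9 and 10 and grey for experiments 2 to 7, and the red points of ribosomal proteins (11.6% to 20.5%) lie apart from the grey ones (83.3% to 100%).

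Markers of other cells were without a count or scattered. Of all 17621 genes, 42.0% had no count in the 153 cells, so a marker without a count is not shown to be absent. Of the fibroblast markers, Col1a1, Col1a2, Thy1 and S100a4 had no count in the 153 cells, Vim was in 3 cells and Dcn in 59. Of primitive endoderm genes, Gata4 and Gata6 had no count, Sox17 was in 1 cell and Pdgfra in 104, with 24.5, 4.26 and 6.82 CPM. Of trophoblast genes, Elf5 had no count, Hand1 was in 4 cells, Eomes in 10 and Gata3 in 64. The summed share of each of these 3 lists was at most 0.00270% of the counts of an experiment. Olfactory receptor genes, which mESCs do not use, were split. Olfr224 was in all 153 cells, Olfr1080 in 150 and Olfr78 in 148, while 83, 94 and 98 of 110 such genes had no count in experiments 8, 9 and 10. These were 75.5%, 85.5% and 89.1%, against 52.2%, 61.7% and 60.8% of all genes.

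Of 9 PRC2 genes in the matrix, Aebp2 was the only one in the set of 483. Jarid2, an accessory subunit, was in 28.6%, 6.98% and 14.8% of the cells, with 1.20, 0.183 and 1.27 CPM against 22127, 25283 and 14153 CPM for Aebp2. Ezh2, the methyltransferase, was in 1 of the 153 cells, Suz12 in 1, Eed in 4 and Rbbp4 in 0. In bulk SET-seq the order was different, with an RPKM of 4.49 for Aebp2, 32.5 for Jarid2, 38.2 for Ezh2, 14.1 for Suz12, 48.0 for Eed and 35.7 for Rbbp4. Of the Wnt target genes, Axin2, a negative regulator of the pathway, had no count in the 153 cells and had a bulk RPKM of 15.9. Lef1, a transcription factor of the pathway, was in 2 cells. Nkd1, a feedback inhibitor, was in all 153 cells at 146, 124 and 127 CPM, and belonged to the set of 483. Lgr5, an R-spondin receptor, was in 14.3%, 69.8% and 37.04% of the cells.

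The Mix cells of experiments 8, 9 and 10 were then compared with those of experiments 2 to 7 gene by gene, on counts summed per experiment. edgeR's quasi-likelihood test with Benjamini-Hochberg adjustment called 1911 of 5601 genes (34.1%), 412 higher (7.36%) and 1499 lower (26.8%) in experiments 8 to 10. The median log2 fold change over all genes tested was -0.85. The call of lower genes was not stable. Without experiment 8, 9 or 10 the counts of called genes were 78, 121 and 139, all of them higher, and without the filter on low counts 59 genes were called, also all higher. On the mean log2(CPM + 1) of the cells, limma called 75 higher and 96 lower. The genes called lower had a median bulk RPKM of 39.9 and those called higher of 1.38, against 5.90 for all genes tested.

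Of the 412 genes called higher, 6 were called in the same direction in all 16 alternatives, while 0 of the 1499 lower ones were. Among them, Nlrp12, an innate immune receptor on chromosome 7 from 3221511 to 3249741, was in 98.2%, 100% and 100% of the cells with 806, 343 and 895 CPM. In experiments 2 to 7 it was seen in experiment 6 alone, at 1.54 CPM. The log2 fold change was 12.38 (standard error 2.63, adjusted p = 0.00174 by edgeR). Galnt12, which starts O-linked glycosylation, had 27.9, 1262 and 887 CPM and was in 80.4%, 100% and 100% of the cells, and 4.35 CPM in experiment 7 was its only level above 0 in experiments 2 to 7 (log2 fold change 12.08, standard error 2.65, adjusted p = 0.00191). Gm7932, a predicted gene on chromosome 6, was in 91.1%, 67.4% and 90.7% of the cells with 64.1, 8.59 and 84.4 CPM. It had 0 counts in experiments 2 to 7 and was at least 356-fold higher against a floor of 3 counts over these experiments. A gene at 0 in one group passed the filter on low counts through the other group alone, so its direction was fixed by the filter. The others, named after their values were seen, were Hpgds, a prostaglandin D synthase with 1453, 986 and 1488 CPM, Skint7, of a family that acts on skin T cells, with 443, 583 and 784 CPM, and Pik3r6, a PI3-kinase regulatory subunit, with 641, 3.53 and 1171 CPM. Their bulk RPKM were 0.241, 0 and 0.453.

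Several of the other genes with large differences rested on 1 experiment. Of the 412 genes called higher, 168 (40.8%) had over 90% of their summed CPM of the 3 experiments in 1 of them, against 22.4% of all genes tested. In at least 50% of the cells of each experiment were 151 of them (36.7%), against 23.2% of all genes tested. Igfals, a serum protein that binds insulin-like growth factors, had 2.03, 1080 and 2.53 CPM and was at least 2479-fold higher than the floor, but was in 13 of the 153 cells. Without experiment 9 this bound was 15.4-fold. Zkscan17, a zinc finger gene, had 267, 2464 and 3.21 CPM. Pycard, the inflammasome adaptor ASC, had 29.9, 2737 and 8.38 CPM, and Mrps26, of the mitochondrial ribosome, had 2515, 6.09 and 6.53. Fam168b, AI837181, Ttc13 and Xkr8 had their highest level in experiment 9, between 1385 and 2687 CPM, and at most 56.7 CPM in experiments 8 and 10. 4933407E24Rik, with 0 counts in experiments 2 to 7, had 44.4, 1.95 and 75.6 CPM and was at least 262-fold higher. Groups that did not overlap were found for 163 of the called higher genes, and CPM above those of every other experiment for 4.5% of all genes tested.

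The largest differences downward were genes with 0 counts in experiments 8, 9 and 10, of which there were 508 among the genes tested. These genes had passed the filter through experiments 2 to 7 alone, so their direction is a description, and without the filter 0 genes were called lower. CPM below those of every other experiment occurred in 10.0% of all genes tested. Jagn1, an endoplasmic reticulum protein, had 0.80 to 1119 CPM in experiments 2 to 7 with a median of 9.81, and was at least 1773-fold lower over the pooled counts. Alyref, an mRNA export factor with a bulk RPKM of 311, had 3.20 to 660 CPM and was at least 2446-fold lower. Impdh2, of guanine nucleotide synthesis, had 24.7 to 494 CPM and was at least 2331-fold lower. Ppp2r1a, the scaffold of protein phosphatase 2A, had 0.133 to 392 CPM and was at least 2492-fold lower. Cenpm, Naa25, Dnajc8, Uchl1, Mad2l1, Syce2, Letm1 and Adrm1, which include genes of the centromere, splicing, the spindle checkpoint and the proteasome, were at least 869-fold to 2190-fold lower. These bounds rested in part on experiment 3, with 3 cells. Without it they were 18.5-fold for Jagn1, 24.6-fold for Mad2l1, 27.3-fold for Syce2, 150.3-fold for Uchl1, 163-fold for Naa25, 405-fold for Cenpm, 484-fold for Adrm1 and 833-fold for Letm1. Alyref, Impdh2 and Dnajc8 kept at least 1371-fold, and Ppp2r1a had 1301-fold without experiment 6. The highest CPM among the earlier experiments was in experiment 3 for each of these 12 genes, and the call of each was lost without experiment 8, 9 or 10.

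Over the lists, 9 of 17 housekeeping genes tested, 38 of 79 ribosomal protein genes, 37 of 63 respiratory chain genes and 5 of 7 PRC2 genes were called lower, against 26.8% of all genes tested. The median bulk RPKM of these lists was 974, 463, 238 and 32.5. Of the 2435 genes tested with a bulk RPKM of at least 10, 1197 were called lower. This is the nearer background, so the calls do not set the housekeeping and ribosomal protein genes apart. The median log2 fold changes of the 4 lists were -6.89, -6.88, -6.90 and -7.54. With the 5 respiratory chain genes at 0 set to their bound, that list's median was -6.85. The PRC2 genes were Ezh2, Suz12, Rbbp4, Jarid2 and Mtf2. The respiratory chain had 1 gene called higher, Ndufs1 of complex I, with 15.1, 767 and 1.27 CPM. Lef1 of the Wnt targets, Vim of the fibroblast markers and Olfr985 of the olfactory receptors were each the 1 gene of their list called lower. Olfr985, Rbbp4 and the 5 respiratory chain genes at 0 had no count in experiments 8 to 10. They passed the filter on low counts through experiments 2 to 7 alone, so their direction was fixed by the filter. Of 20 neuronal genes, 1 was called higher, which was Dlg2, a synaptic scaffold with 310, 512 and 5291 CPM, and the median was 2.15. Of 14 mESC markers tested, 1 was called higher, which was Lin28a with 3.48, 1.83 and 29.3 CPM against at most 4.36 CPM. The 1 called lower was Dppa5a with 0.579, 0.365 and 1.27 CPM against 44.7 to 554 CPM. No list gene called lower kept its call without experiment 8, 9 or 10, since no gene did. Of the Mix markers, 4930438A08Rik was called higher, with 10309, 16112 and 21436 CPM and an adjusted p of 0.0464 by edgeR (log2 fold change 4.29 with a standard error of 1.77), and its call was lost in 11 of 16 alternatives. Cracr2a had a log2 fold change of 3.83 (adjusted p = 0.0713) and Aebp2 of 1.27 (adjusted p = 0.551).

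The position relative to the bead left 1 call. Proximal and distal Mix cells were compared within experiments 8, 9 and 10, with the experiment as a block. edgeR's quasi-likelihood test called 1 of 2907 genes (0.0344%) at an adjusted p below 0.05, and 145 genes had an unadjusted p below 0.05. The gene was Ash2l, with 38.6 CPM in distal and 0 in proximal cells of experiment 8, 31.4 and 0 CPM in experiment 9, and 43739 and 0.689 CPM in experiment 10. Its adjusted p was 0.0425, and the cell led by Ash2l belonged to experiment 10. The experiments shared their indexes, and some other genes high in 1 experiment kept to the same position in the others. Fam168b had 114, 4904 and 7.4 CPM in proximal cells of experiments 8, 9 and 10, and at most 0.807 CPM in distal cells. AI837181 had 62.8, 3858 and 13.5 CPM in distal and at most 0.387 CPM in proximal cells. Dlg2 did not, with 309 distal and 310 proximal CPM in experiment 8. Whether the Ash2l values of the experiments are independent was not tested. No gene was called without the block or with any experiment left out, while DESeq2 with the block called 229.

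None of the 3 Mix markers passed the test by position. Of the 11 Wnt targets in the matrix, 3 had enough counts to be tested, which were Nkd1, Lgr5 and Znrf3, and none of them passed. The other Wnt targets, with Axin2 and Lef1 among them, were not tested by position. Aebp2 had 21643, 22747 and 13248 CPM in distal cells and 22618, 28123 and 14847 CPM in proximal cells (log2 fold change 0.06, adjusted p = 0.969 by edgeR). Nkd1 had 157, 111 and 121 CPM in distal and 135, 138 and 131 CPM in proximal cells (log2 fold change -0.05). Lgr5 had a log2 fold change of -0.30 with a standard error of 0.31. Cracr2a had 12882, 17545 and 1640 CPM in distal cells and 10168, 14058 and 13227 CPM in proximal cells, so that distal cells of experiment 10 stood apart. 4930438A08Rik had 8635, 19295 and 45068 CPM in distal and 12005, 12548 and 3299 CPM in proximal cells.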

How the data were processed

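The authors counted the reads of each cell on exons and introns of mm9 genes with zUMIs, and the deposited single-cell values are counts of reads, not of molecules, for every gene in each cell. For the bulk libraries the authors used Trim Galore 0.6.4, STAR 2.5.4b and featureCounts 2.0.0, and the deposited values are counts of read pairs on exons without regard to strand, so overlapping and antisense genes cannot be told apart. Clusters and positions came from the study's cell table. Its limits of 1000 to 5000 genes per cell were the authors', and doublets were not searched for, since cells were picked by hand.

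Counts of Mix cells were summed per experiment, for experiments with at least 3 such cells, or per experiment and position. RPKM, exon lengths and spans used the annotation in the bulk files, with Rn45s left out of the relations to bulk. Genes on several chromosomes, on both strands or over more than 3000000 bases had no span. Detected means at least 1 count. Gene positions overlapped those of NCBIM37 for 99.9% of 14847 genes matched by symbol.

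edgeR 4.0.16 (TMM, filterByExpr, quasi-likelihood, Benjamini-Hochberg, adjusted p below 0.05) was the main test across genes. Proximal and distal cells were picked as pairs within an experiment, which was therefore the block. Single values per experiment were compared with exact two-sided permutation tests. Alternatives were DESeq2 1.42.0, limma 3.58.1, other size factors, filters, cells, bulk libraries and scales, and each experiment left out. The tests were checked on simulated data. There the comparison between experiments missed most of the genes that had been changed. The comparison by position missed most of those with the smaller change. An uncalled gene is therefore not shown to be unchanged. Calculations used R 4.3.3 and Python 3.11.15 with numpy 2.4.6, pandas 2.3.3, scipy 1.17.1 and matplotlib 3.10.9.

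Named genes were the 3 markers, the 15 genes with the highest mean percent of a cell's counts, up to 12 higher and 12 lower called genes without overlap by fold change, and up to 4 genes of each list with the highest CPM. The 10 genes by detection were taken by mean percent, since 289 tied at 100%. Other list members, leading genes of cells and the genes called in every alternative were named after their values were seen. The members and lists were chosen with earlier results of these data known.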

Additional observations from a re-analysis of the deposited data

Results flagged for a closer look

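Among the 6 earlier experiments, 1 stood apart from the others in the CPM of 26 of the named genes, by Dixon's test at the 95% level. Up to 44 groups of 6 values were tested, and chance flags about 1 in 20 such groups. Igfals, Gm7932 and 4933407E24Rik had no count in experiments 2 to 7, so they could not be flagged. In experiment 6, Cracr2a had 11317 CPM, 4930438A08Rik 13189, Arhgap32 12498, Gm5086 11106, Zfyve26 8008.3 and Nlrp12 1.5388. In experiment 3, Rn45s had 168740 CPM and Zc3h7a 51540. Also highest in experiment 3 were Jagn1 with 1119.1 CPM, Alyref with 659.69, Impdh2 with 494.01, Cenpm with 723.22, Dnajc8 with 602.77, Mad2l1 with 570.24, Syce2 with 575.32, Adrm1 with 442.67 and Ash2l with 314.09, and experiment 3 holds 3 Mix cells. In experiment 4, which also holds 3 Mix cells, Aebp2 had 99369 CPM. In experiment 5, Mir3084-1 had 296150 CPM and AI837181 had 4.3602. In experiment 7, Cfap54 had 13853 CPM and Galnt12 4.3488. Pycard, Mrps26, Fam168b and Ttc13 each had 2.1744 CPM there, and held 1, 5, 5 and 2 reads over experiments 2 to 7. These genes, Nlrp12, Galnt12 and AI837181 were picked as called higher without overlap, hence for low values in experiments 2 to 7. With most of the 6 values at or near 0, a few reads in 1 experiment give a flag. The rate of 1 in 20 therefore does not apply to them. Jagn1, Alyref, Impdh2, Cenpm, Dnajc8, Mad2l1, Syce2 and Adrm1 were picked as called lower, hence for high values in experiments 2 to 7. The rate does not apply to these genes either.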

How the results depend on the processing

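The lower likeness to bulk SET-seq of experiments 8 to 10 kept its direction and an unadjusted p below 0.05 in all alternatives run, with differences of -0.238 to -0.468, and of -0.301 to -0.358 with 1 experiment left out. The number of genes called between the experiments depended on the setting. It was 59 without the filter on low counts, 171 with limma on the mean log2(CPM + 1) of the cells, 4292 with all cells of 1000 to 5000 genes, and between 78 and 2275 with 1 experiment left out, where it was 1029 without experiment 5. Between experiments 8 to 10 and 2 to 7, Ash2l was called higher (log2 fold change 7.53, adjusted p = 0.0137 by edgeR), with 19.5, 16.6 and 18993 CPM in experiments 8, 9 and 10. This difference between experiments, which is not that by position, changed its sign with limma (-0.94) and without experiment 10. Its values were -0.54 to 9.56 when 1 experiment was left out. For proximal against distal cells, 1 gene was called with the experiment as a replicate block. No gene was called with no replicate block (0, with 192 genes at an unadjusted p below 0.05) or with 1 experiment left out (0 to 0), 9 were called without the filter and 229 by DESeq2 with the replicate block. The difference in the share of counts on genes with a bulk RPKM below 0.1 turned to -2.86 percentage points for genes without a count in 8 libraries, and ran from -3.26 without experiment 3 to 4.61 without experiment 5, with -0.0635 without experiment 6, -0.0538 without experiment 7 and -1.41 without experiment 10. The difference in the relation to span was 0.0721 with exon length and 0.147 to 0.199 with 1 experiment left out, with differences of 0.193, 0.167, 0.168 and 0.181 without experiments 6, 8, 9 and 10, where the exact permutation p was 0.0536, 0.0714, 0.0714 and 0.0714. The difference in genes per cell at 5000 counts was -259 with all cells of 1000 to 5000 genes and -136 to -223 with 1 experiment left out, and passed the unadjusted threshold for the former and without experiment 3. The bounds for genes at 0 in 1 group with each experiment of the other group left out were added after seeing the data, and are given beside those genes. The cause of these changes was not tested. With few Mix cells in experiments 2, 3, 4 and 7 and reads in place of molecules, depth limits statements on genes seen in few cells.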
